A study of Homo sapiens with 12 samples.

Results

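The genes described here form the switch between epithelial and mesenchymal cell states. They are 10 genes chosen by symbol, namely VIM, ZEB1, SNAI1, SNAI2, CDH2, CDH3, OVOL1, GRHL2, ESRP1 and ESRP2, and they account for 12 of the 30113 probes that name a single gene and 10 of the 20046 genes that those probes name. VIM and SNAI2 had 2 probes each and the other members 1. Of the 10 members, 6 had a probe detected on at least 3 of the 12 arrays and were tested, which were VIM, SNAI2, CDH3, OVOL1, GRHL2 and ESRP1. ZEB1, SNAI1, CDH2 and ESRP2 were detected on 0 of the 12 arrays, and no test was made of them.

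The arrays were Illumina HumanHT-12 v4 BeadChips hybridised with RNA from SNU-5 and MKN45, a pair of human gastric cancer cell lines that carry amplified MET. Each line was left untreated or incubated for 24 h with 1 µM crizotinib, a drug that blocks the kinase activity of MET, and each of the 4 groups had 3 arrays. SNU-5 was grown in Iscove's medium and MKN45 in RPMI-1640, so that in any difference between the lines the contributions of line and medium cannot be told apart. Whether the 3 replicates of a group were separate cultures is stated in neither the labels nor the methods. The p-values given here therefore cover the spread among these arrays and no more, and that spread may be technical. Mean signal per array ran from 312.5 to 557.2, with 18998 to 20248 probes detected, and SNU-5 control replicate 1 had the highest mean signal and correlated with another SNU-5 control array at 0.951, against at least 0.983 between replicates of the other groups. In both lines EPCAM, the epithelial adhesion molecule used to mark carcinoma cells, was detected on every array, at log2 signals of 11.08 to 11.53 in SNU-5 and 12.28 to 12.81 in MKN45.

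In an epithelial-mesenchymal transition, cells loosen their junctions and replace keratin-based architecture with a vimentin-rich cytoskeleton. Transcription factors of the SNAIL and ZEB families drive it by binding E-boxes in epithelial promoters and silencing them, with E-cadherin (CDH1) as the classical target. Grainyhead-like and OVO-like factors oppose it and keep epithelial genes active, and the ESRP proteins impose the epithelial pattern of splicing on shared transcripts. MET, the receptor for hepatocyte growth factor or scatter factor, is known for inducing cell scattering when it is active.

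SNU-5 and MKN45 differed in most tested members before any drug was given. Untreated SNU-5 had more VIM and SNAI2 and less CDH3, GRHL2 and ESRP1 than untreated MKN45, so that 5 of the 6 tested members were called, where 21.6% of 12760 tested genes were called. Called means at least 2-fold apart, with a limma p under 0.001 and, after adjustment over all probes, under 0.05. All 6 tested members had non-overlapping groups between the untreated lines and all 6 between the treated lines, where 51.7% and 61.9% of all genes did. For SNAI2 between the treated lines, the nearest arrays read 4.766 in SNU-5 and 4.762 in MKN45, both undetected, and the difference was not called. Under crizotinib 5 of 6 members also differed between the lines, against 24.9% of all genes: VIM was higher and CDH3, OVOL1, GRHL2 and ESRP1 were lower in SNU-5. GRHL2, ESRP1 and OVOL1 were detected in MKN45 only, and CDH3 in SNU-5 on 1 array. These members thus passed the detection filter through the line where they were high. The counts between the lines are therefore not independent of the filter. Crizotinib itself moved few members. SNAI2 fell in SNU-5, which was 1 of 6 members where 14.5% of all genes were called, and ESRP1 rose in MKN45, again 1 of 6 where 14.5% of all genes were called, both shares close to the background. The contrast of the drug responses, SNU-5 minus MKN45, was below 0 and called for SNAI2, which fell in SNU-5, and for ESRP1, which rose in MKN45 and was below detection in SNU-5. These were 2 of 6 members, where 6.75% of all genes were called for this contrast, 3.43% below 0 and 3.32% above it. The comparisons share arrays and are not independent of each other.

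**Figure D1:**
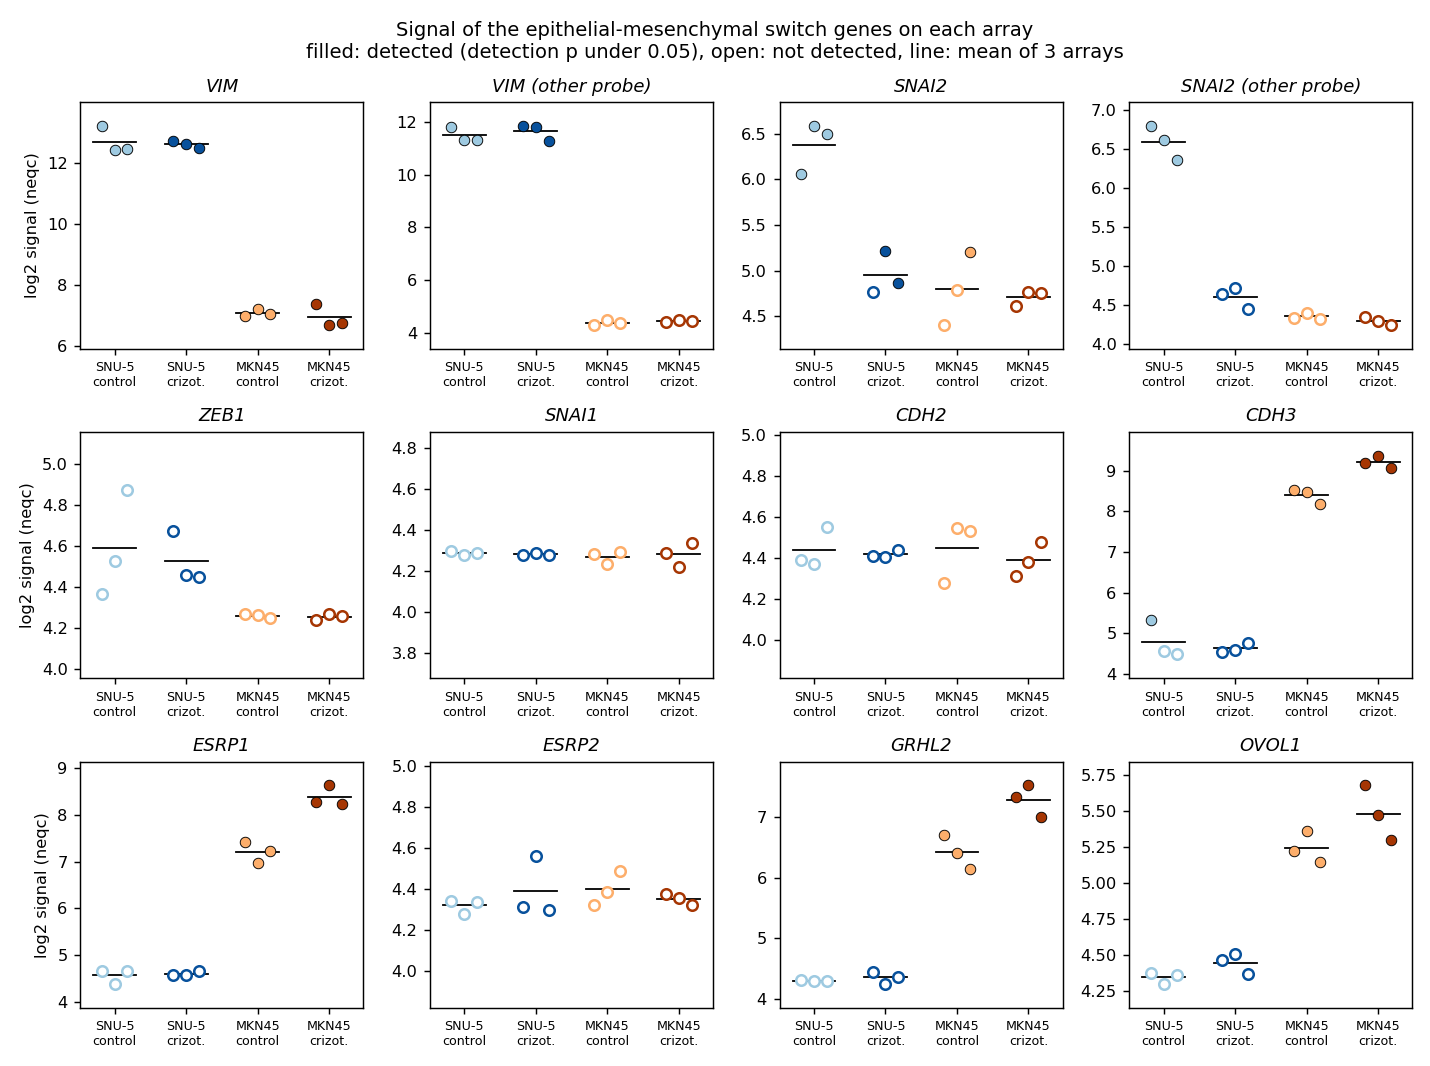
Log2 signal after background correction and quantile normalization (vertical axis, with its own range in each panel) of every member probe on the 12 arrays, in the 4 groups of 3. Filled points were detected at a detection p under 0.05, open points were not, and the line is the mean of 3 arrays. The brighter VIM probe lies near 12.7 in SNU-5 and near 7 in MKN45 with or without crizotinib, SNAI2 is high only on the 3 SNU-5 control arrays, and CDH3, ESRP1, GRHL2 and OVOL1 are detected on all 6 MKN45 arrays.

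VIM encodes vimentin, the intermediate filament protein of mesenchymal cells. In SNU-5 controls its brighter probe gave log2 signals of 13.21, 12.44 and 12.47, and with crizotinib 12.72, 12.63 and 12.49. In MKN45 controls the signals were 6.98, 7.19 and 7.03, and with crizotinib 7.38, 6.69 and 6.75. All 6 SNU-5 arrays stood above all 6 MKN45 arrays, and within each line treated and control arrays overlapped. Untreated SNU-5 exceeded untreated MKN45 by 5.64 on the log2 scale (SE 0.23, limma adjusted p = 2.8e-10), or 49.9-fold, and the difference under crizotinib was 5.67 (SE 0.23, adjusted p = 2.1e-10). No response to crizotinib was detected: the change was -0.09 in SNU-5 (95% confidence interval -0.58 to 0.40, adjusted p = 0.82) and -0.12 in MKN45 (-0.61 to 0.36, adjusted p = 0.75). When SNU-5 control replicate 1, the highest VIM array, was left out, the SNU-5 change was 0.16 (adjusted p = 0.61).

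The other VIM probe gave 11.83, 11.33 and 11.32 in SNU-5 controls and 11.84, 11.80 and 11.29 with crizotinib, and was detected on 0 of 6 MKN45 arrays, where it lay between 4.30 and 4.48. If no array of a group detected a probe, the fold is given as a bound. All bounds were computed on background-corrected signals, against the lowest detected signal of each array of that group. By this probe VIM was at least 98.9-fold higher in untreated SNU-5 (adjusted p = 7.2e-12) and at least 110.0-fold higher under crizotinib (adjusted p = 3.6e-12). These bounds hold for background-corrected signals: without the correction the log2 difference of this VIM probe was 5.88 untreated and 5.93 under crizotinib, which is below them. The probes therefore differ over MKN45, where one was detected on every array and the other on none, and have the same sign and call in the comparison of lines.

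The VIM promoter is shown because VIM has the largest line difference of the tested members in either direction and no called drug response. The RefSeq window of GRCh38.p14, from 250 bases before the gene start to 50 after it, is chr10:17227991-17228290 on the plus strand, with a GC content of 48.0%. It is printed 5′ to 3′ with the single match to the GC box GGGCGG (either strand), 46 bases before the start, in capitals.
VIM: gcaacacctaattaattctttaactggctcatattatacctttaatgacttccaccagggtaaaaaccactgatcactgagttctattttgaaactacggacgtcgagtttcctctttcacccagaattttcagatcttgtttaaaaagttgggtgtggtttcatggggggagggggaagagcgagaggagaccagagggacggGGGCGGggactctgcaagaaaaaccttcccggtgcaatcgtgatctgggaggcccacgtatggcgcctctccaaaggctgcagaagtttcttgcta
The E-box CACCTG, the Grainyhead-like motif AACCNGTT and the AP-1 motif TGANTCA (each on either strand) had 0 matches in these letters. Among all 35116 windows of the table, 45.0% held the GC box, 20.6% the E-box, 1.73% the Grainyhead-like motif and 7.71% the AP-1 motif. RefSeq windows were found for 3 of the 10 members, VIM, ZEB1 and CDH2.

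SNAI2 encodes SLUG, an E-box-binding repressor of the SNAIL family. Its brighter probe read 6.06, 6.58 and 6.49 in SNU-5 controls and 4.77, 5.22 and 4.86 with crizotinib, where it was detected on 2 of 3 arrays. In MKN45 it read 4.41, 4.79 and 5.21 in controls, detected on 1 of 3 arrays, and 4.62, 4.76 and 4.75 with crizotinib, detected on 0 of 3. The 3 SNU-5 control arrays were above all 9 others. Groups of 3 arrays did not overlap for 47.5% of all genes in the SNU-5 drug comparison. In SNU-5 the log2 signal of SNAI2 dropped by 1.43 (SE 0.21, limma adjusted p = 1.9e-04), or 2.69-fold, where fewer expressing cells and less RNA per cell cannot be told apart, and the MKN45 change was -0.09 (95% confidence interval -0.55 to 0.37, adjusted p = 0.81). The contrast of the drug responses, SNU-5 minus MKN45, was -1.34 (SE 0.30, adjusted p = 0.012). Untreated SNU-5 had 2.98-fold more SNAI2 than untreated MKN45 (log2 difference 1.58, SE 0.21, adjusted p = 4.5e-05), and under crizotinib, where MKN45 did not detect it, the excess was at least 1.06-fold and not called (adjusted p = 0.41).

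The other SNAI2 probe separated the groups further. It read 6.79, 6.62 and 6.36 in SNU-5 controls and 4.64, 4.72 and 4.45 with crizotinib, and from 4.25 to 4.41 in MKN45, and was detected on the 3 SNU-5 control arrays only. The fall in SNU-5 was at least 3.26-fold (log2 change -1.99, SE 0.15, adjusted p = 5.8e-07), and the excess of untreated SNU-5 over untreated MKN45 was at least 3.31-fold (adjusted p = 4.1e-08). The contrast of the drug responses was -1.93 (SE 0.21, adjusted p = 5.8e-05). This probe passed the detection filter only through the SNU-5 controls, the group where it was high. In MKN45 it was below detection throughout, so a fall there could not be measured. The fold, though not the direction, depended on background correction. On quantile-normalized signals without it, the brighter probe fell by 0.83 in SNU-5 (limma adjusted p = 7.5e-04), which is under 2-fold. The untreated line difference of the brighter probe was then 0.96 (limma adjusted p = 1.7e-04), also under 2-fold and not called. The SNU-5 change of the other probe was then -1.21 and its untreated line difference 1.49. Both are smaller than the bounds above, which hold for corrected signals. With SNU-5 control replicate 1 left out, the SNU-5 change of the brighter probe was -1.59 (adjusted p = 6.0e-05).

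SNAI1, the founding SNAIL repressor, and ZEB1, a zinc finger E-box repressor that also acts against the ESRP genes, were not detected in either line. SNAI1 read between 4.22 and 4.34 on the 12 arrays, at the level of undetected probes. ZEB1 read 4.36, 4.52 and 4.87 in SNU-5 controls, 4.67, 4.46 and 4.45 in SNU-5 with crizotinib, and 4.24 to 4.27 on the 6 MKN45 arrays. All SNU-5 arrays were above all MKN45 arrays in ZEB1, but none passed detection, so no fold is given. In a fit without the detection filter, the untreated line difference of ZEB1 was 0.33 (adjusted p = 0.083). ZEB2, the related repressor, was likewise detected on 0 of 12 arrays.

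Cadherins are the calcium-dependent adhesion molecules that the switch exchanges. CDH2, N-cadherin, the mesenchymal form, was detected on no array and read between 4.28 and 4.55. CDH3, P-cadherin, found in basal epithelial layers, read 8.53, 8.48 and 8.18 in MKN45 controls and 9.18, 9.36 and 9.06 with crizotinib. In SNU-5 it read 5.33, 4.57 and 4.49 in controls, detected on replicate 1 alone, and 4.55, 4.59 and 4.77 with crizotinib, detected on no array. The log2 difference of CDH3, SNU-5 minus MKN45, was -3.60 untreated (SE 0.21, limma adjusted p = 1.1e-08), measured in SNU-5 on that 1 array, and with crizotinib SNU-5 had at least 19.9-fold less (adjusted p = 8.0e-10). Without background correction the differences of CDH3 were -2.57 and -3.37, so that this bound too holds for corrected signals. In MKN45 every treated array was above every control array. Treated and control arrays did not overlap, in either direction, for 49.1% of all genes in that comparison. The change of CDH3 in MKN45 was 0.80 (SE 0.21, adjusted p = 0.0094), or 1.75-fold, and did not meet the call. The SNU-5 change was -0.16 (95% confidence interval -0.61 to 0.29, adjusted p = 0.64), or 0.11 when SNU-5 control replicate 1 was left out, and the line difference in the response was -0.96 (SE 0.29, adjusted p = 0.058).

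CDH1, the E-cadherin gene, is not a member but is the best known target of the repressors and lies next to CDH3 on chromosome 16. It read 12.13, 11.58 and 11.29 in MKN45 controls and 12.31, 12.30 and 12.28 with crizotinib. In SNU-5 controls it read 4.88, 4.53 and 4.39 and was detected on replicate 1 alone, and with crizotinib it read 5.80, 5.58 and 5.43 and was detected on all 3 arrays. The log2 difference, SNU-5 minus MKN45, was -7.07 untreated (SE 0.21, adjusted p = 1.7e-11) and -6.70 with crizotinib (SE 0.21, adjusted p = 2.1e-11). The SNU-5 change of 1.00 (SE 0.21, adjusted p = 0.0023) lay just below the 2-fold threshold and was 1.14 (adjusted p = 8.4e-04) when SNU-5 control replicate 1 was left out. The MKN45 change was 0.63 (SE 0.21, adjusted p = 0.032), and the responses were not shown to differ (0.37, SE 0.29, adjusted p = 0.52).

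ESRP1 encodes an epithelial splicing regulator whose known targets include CD44, ENAH, CTNND1 and FGFR2 transcripts. It read 7.42, 6.97 and 7.24 in MKN45 controls and 8.28, 8.63 and 8.24 with crizotinib, and from 4.38 to 4.66 on the SNU-5 arrays, where it was detected on none. The treated MKN45 arrays were all above the control arrays. ESRP1 rose by 1.18 in MKN45 (SE 0.16, limma adjusted p = 1.2e-04), or 2.26-fold, and the SNU-5 value was 0.03 (95% confidence interval -0.32 to 0.38, adjusted p = 0.93), a difference between signals that were both below detection. The difference between the line changes was -1.15 (SE 0.23, adjusted p = 0.0067), and with the replicate number as a block it kept this size at an adjusted p of 0.021 and lost the call. Untreated SNU-5 had at least 5.00-fold less ESRP1 than MKN45 (adjusted p = 2.3e-08), and treated SNU-5 at least 11.3-fold less (adjusted p = 4.7e-10). Without background correction the log2 differences of ESRP1 were -1.71 and -2.65, smaller than these bounds. ESRP2, its paralog, read between 4.28 and 4.56 and was detected in neither line.

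GRHL2, a Grainyhead-like factor that activates CDH1 and claudin genes and represses ZEB1, read 6.71, 6.42 and 6.14 in MKN45 controls and 7.33, 7.53 and 7.01 with crizotinib. It read 4.24 to 4.44 on the 6 SNU-5 arrays and was detected on none. The treated MKN45 arrays did not overlap the controls, and the change of 0.87 (SE 0.18, limma adjusted p = 0.0019), or 1.82-fold, did not reach 2-fold. The line difference in the response was -0.81 (SE 0.25, adjusted p = 0.056). GRHL2 was at least 2.91-fold lower in untreated SNU-5 (adjusted p = 4.1e-07) and at least 5.30-fold lower under crizotinib (adjusted p = 1.2e-08). Without background correction its log2 difference under crizotinib was -2.07, and both differences were smaller than these bounds.

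OVOL1, a zinc finger repressor of mesenchymal genes, read 5.22, 5.36 and 5.14 in MKN45 controls and 5.68, 5.47 and 5.30 with crizotinib, with overlapping groups, and 4.30 to 4.51 in SNU-5, where it was detected on none of the arrays. The MKN45 change was 0.24 (95% confidence interval -0.06 to 0.54, adjusted p = 0.24). The log2 difference, SNU-5 minus MKN45, was -0.89 untreated (SE 0.14, adjusted p = 1.8e-04, not called) and -1.03 with crizotinib (SE 0.14, adjusted p = 4.3e-05), which is at least 1.28-fold and at least 1.51-fold lower. The call under crizotinib was lost without background correction (-0.65), without SNU-5 crizotinib replicate 3 (-0.995) and without MKN45 crizotinib replicate 1 (-0.94).

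**Figure D2:**
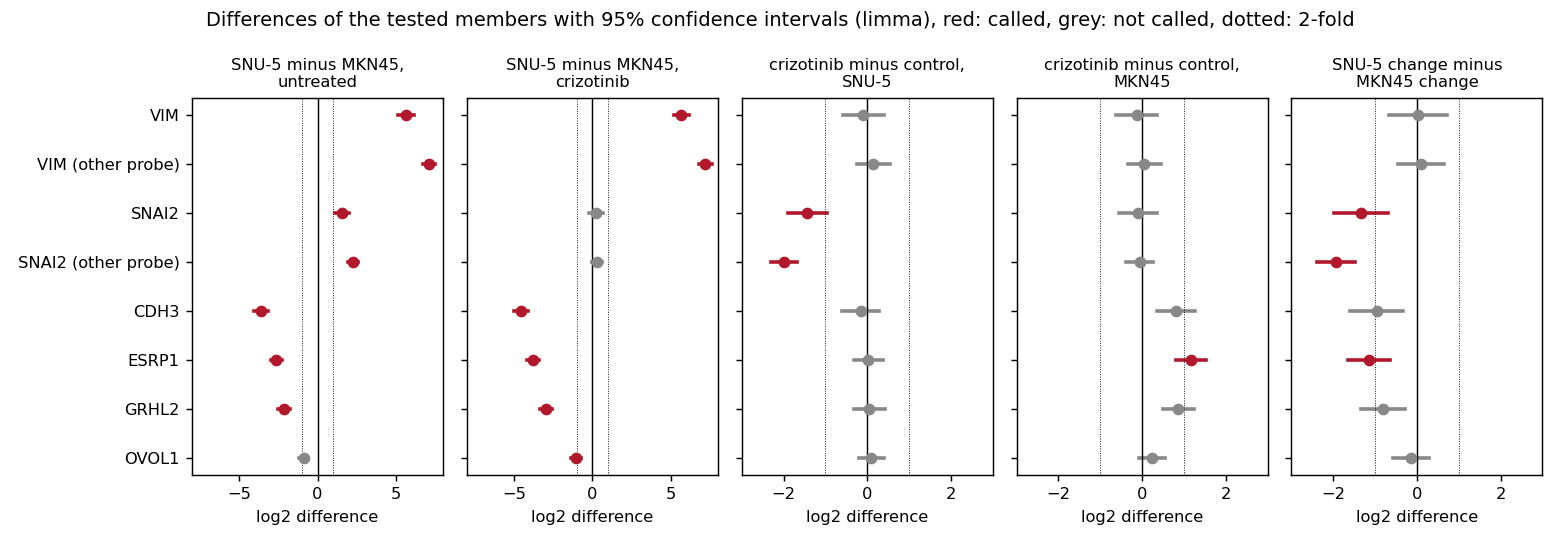
Log2 differences (horizontal axes, wider in the first 2 panels) of the 8 tested member probes in 5 comparisons, with 95% confidence intervals from limma. Red points were called, grey points were not, and the dotted lines mark 2-fold. VIM is called only between the lines. SNAI2 is called between the untreated lines, in the SNU-5 response and in the contrast of the responses. ESRP1 is called between the lines, in the MKN45 response and in the contrast of the responses.

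In the comparison of untreated lines, genes that act beside the members were counted from lists written with earlier results of these data known, and the genes named from this comparison were chosen after their values had been seen. Of 27 tested epithelial effectors (junction, polarity, keratin and surface genes), 19 were lower and 1 higher in untreated SNU-5, with a median log2 difference of -2.19 against -0.0041 over all genes, of which 10.7% were called lower. RAB25, a GTPase of apical recycling, was at least 76.7-fold lower, and MAL2, which serves apical transport, at least 59.9-fold lower. The log2 difference was -6.39 (SE 0.23) for MUC1, a membrane mucin, -3.51 (SE 0.20) for CRB3, a polarity protein, and -3.84 (SE 0.17) for AP1M2, an adaptor of basolateral sorting. The called gene that was higher was CLDN4, a junction gene, at 1.30 (SE 0.24). Not every epithelial gene was low: CDH17, the intestinal liver-intestine cadherin, was higher in SNU-5 by 3.14 (SE 0.19, limma adjusted p = 1.6e-08).

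Other guardian factors split in the same comparison, 3 lower and 1 higher of 11 tested, where 10.7% of all genes were lower and 10.9% higher. With SNU-5 control replicate 1 left out, 2 were called higher. OVOL2, the OVO-like relative of OVOL1, was detected on all MKN45 arrays at 9.74 to 10.49 and on no SNU-5 array, at least 34.3-fold lower untreated. FOXA2, a forkhead factor of gut endoderm, was at least 100.4-fold lower. GRHL3 ran the other way. This relative of GRHL2 read 8.01, 6.88 and 6.88 in SNU-5 controls and was detected on no MKN45 control array, at least 5.24-fold higher in SNU-5 (limma adjusted p = 7.8e-07).

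The mesenchymal side gave no common direction. Of 16 tested mesenchymal effectors, 6 were higher and 5 lower in untreated SNU-5, where 10.9% of all genes were higher and 10.7% lower, with a median log2 difference of 0.06. Those higher were AXL, a receptor tyrosine kinase, TPM2, TGFBI, COL6A1, COL1A2 and CALD1. Those lower were TPM1, MSN, ITGA5, TAGLN and COL5A1. The log2 difference was 4.71 (SE 0.16) for AXL and -3.04 (SE 0.14) for TPM1, an actin-binding tropomyosin. FN1, fibronectin, was detected on 1 of 12 arrays and was not tested. Of 12 tested other EMT transcription factors, 0 were called higher and 5 lower in untreated SNU-5, TWIST1, TWIST2, FOXC2, FOXQ1 and SOX4. TWIST1, a basic helix-loop-helix inducer of the transition, read 5.98, 6.56 and 6.00 in MKN45 controls and was detected on no SNU-5 control array, at least 2.45-fold lower in SNU-5 (limma adjusted p = 6.3e-05).

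**Figure D3:**
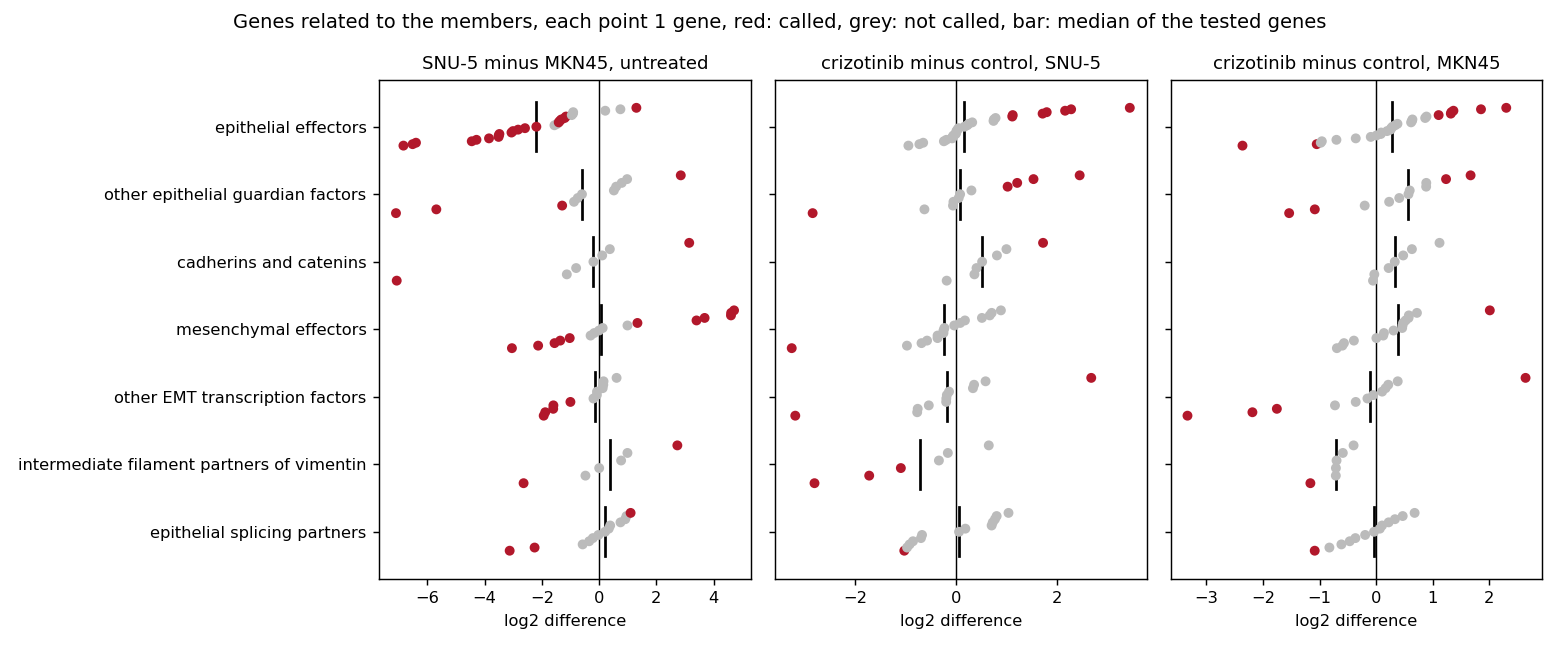
Log2 differences (horizontal axes) of the tested genes of 7 related lists, each point 1 gene and each bar the median, for untreated SNU-5 minus MKN45 and for crizotinib minus control in each line. Red points were called and grey points were not. Epithelial effectors lie mostly below 0 in the comparison of lines, with a median of -2.19, and mesenchymal effectors lie on both sides.

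Promoters of epithelial genes that were lower in untreated SNU-5 were searched for the E-box that SNAIL and ZEB factors bind. Of the 19 lower genes, 13 had RefSeq windows, 19 windows in all. CACCTG on either strand was found in 11 of the 19 windows (57.9%) and for 10 of the 13 genes (76.9%), against 20.6% of all 35116 windows and 24.1% of 27305 genes. Among the other tested effectors, 1 of 4 windows held it. The GC box GGGCGG also stood in 57.9% of the 19 windows, against 45.0% of all windows, and for 10 of the 13 genes (76.9%), against 48.3% of all genes. These shares describe promoters of genes picked by their measured difference and were not tested. In the sequences below, from RefSeq on GRCh38.p14, capitals mark CACCTG or its reverse complement, and the 3 genes are those with the most matches in the set. CLDN7 is at chr17:7262429-7262728 on the minus strand with 5 matches, CRB3 at chr19:6464021-6464320 on the plus strand with 5, and AP1M2 at chr19:10587263-10587562 on the minus strand with 3.
CLDN7: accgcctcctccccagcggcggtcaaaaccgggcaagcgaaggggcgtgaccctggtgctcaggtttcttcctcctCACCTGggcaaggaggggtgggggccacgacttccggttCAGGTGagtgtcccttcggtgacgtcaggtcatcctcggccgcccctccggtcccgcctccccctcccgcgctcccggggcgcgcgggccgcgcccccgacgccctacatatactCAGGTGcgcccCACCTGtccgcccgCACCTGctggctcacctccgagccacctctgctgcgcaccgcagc
CRB3: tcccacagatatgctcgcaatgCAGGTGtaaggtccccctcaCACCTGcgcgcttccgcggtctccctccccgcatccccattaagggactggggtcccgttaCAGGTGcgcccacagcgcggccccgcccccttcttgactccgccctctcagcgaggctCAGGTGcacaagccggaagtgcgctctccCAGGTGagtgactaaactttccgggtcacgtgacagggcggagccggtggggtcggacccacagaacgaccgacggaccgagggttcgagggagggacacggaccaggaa
AP1M2: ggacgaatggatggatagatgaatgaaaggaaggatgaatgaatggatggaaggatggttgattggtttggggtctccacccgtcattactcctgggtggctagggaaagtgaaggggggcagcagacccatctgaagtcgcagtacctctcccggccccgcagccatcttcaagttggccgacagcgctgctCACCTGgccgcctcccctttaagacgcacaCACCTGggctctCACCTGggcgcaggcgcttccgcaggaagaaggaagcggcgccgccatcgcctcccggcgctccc
The matches of CLDN7 began 174, 135, 20 and 9 bases before the gene start and at base 6 after it, and those of AP1M2 at 57, 27 and 15 bases before it. CLDN7, a claudin of the basolateral membrane, had an untreated log2 difference, SNU-5 minus MKN45, of -1.41 (SE 0.15, limma adjusted p = 5.1e-06). It read 9.16, 9.33 and 9.33 in SNU-5 controls and 11.02, 11.08 and 10.87 with crizotinib, a rise of 1.72 (SE 0.15, adjusted p = 2.3e-06), the MKN45 change was -0.36 (adjusted p = 0.088), and the responses differed by 2.08 (SE 0.21, adjusted p = 4.0e-05). CLDN7 was among the 4 epithelial effectors of lowest adjusted p in the drug comparisons. Of the other genes with the E-box, CLDN3 also rose in SNU-5. RAB25, CDS1 and SPINT1 were detected on no SNU-5 array with or without crizotinib, and AP1M2 on no treated SNU-5 array. Whether the motif goes with the drug response was not tested. A match of letters is not a bound site, and binding was not measured.

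**Figure D4:**
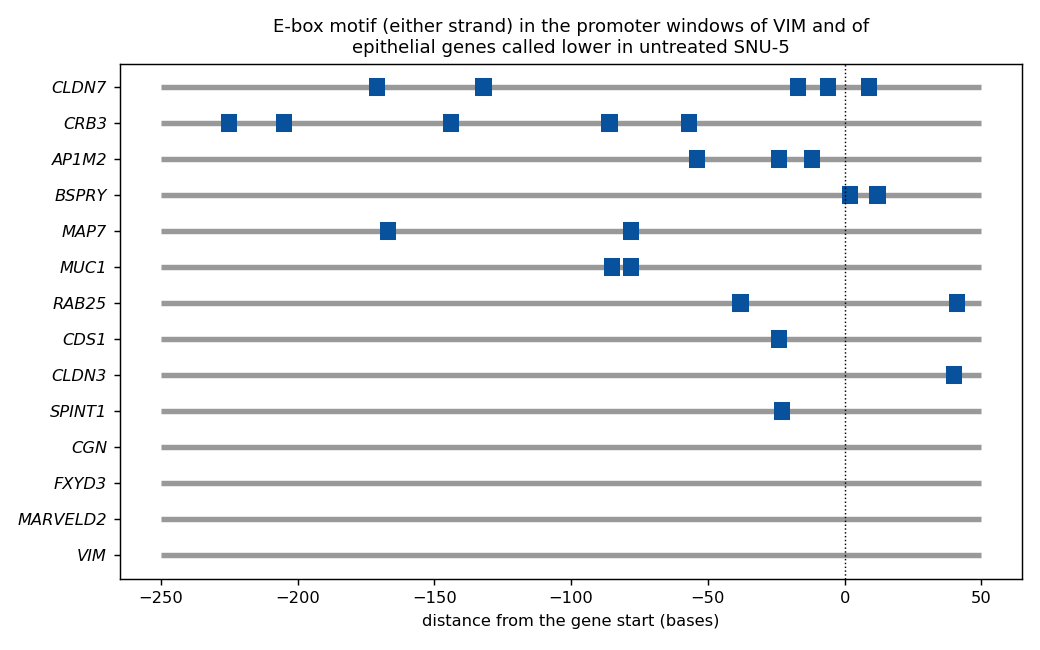
Positions of the E-box motif of the SNAIL and ZEB factors on either strand (blue) along the promoter windows (grey), by distance from the gene start in bases, for VIM and the 13 epithelial genes with windows that were lower in untreated SNU-5. Where a gene had several windows, the window with the most matches is drawn. Of the 13 epithelial genes 10 hold a match, and VIM holds 0.

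Under crizotinib in SNU-5, 7 of 27 tested epithelial effectors rose and 0 fell, where 7.08% of all genes rose, and the median change was 0.17 against 0.018 over all genes. ERBB3, a receptor of the EGF receptor family, went from 8.34, 8.62 and 8.61 to 12.04, 12.08 and 11.77, a rise of 3.44 (SE 0.15, limma adjusted p = 1.7e-08). CLDN3 rose by 2.28 (SE 0.19) and CGN, the tight junction protein cingulin, by 1.80 (SE 0.15). Outside that list, JUP, or plakoglobin, which links cadherins to the cytoskeleton, rose by 1.72 (SE 0.36, adjusted p = 0.0026). JUP read 11.27, 9.81 and 9.27 in SNU-5 controls and 12.02, 11.88 and 11.63 with crizotinib. With SNU-5 control replicate 1 left out, 1 epithelial effector fell.

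COL1A2, NES and GRHL3 also fell in SNU-5 with crizotinib. COL1A2, a fibrillar collagen gene, went from 8.85, 7.84 and 7.12 to 4.61, 4.70 and 4.75 and out of detection, at least 8.28-fold lower (limma adjusted p = 3.9e-06), and was the single called gene of the 16 mesenchymal effectors. With SNU-5 control replicate 1 left out, 1 mesenchymal effector was called higher. NES, or nestin, an intermediate filament protein that copolymerises with vimentin, went from 8.78, 7.96 and 8.01 to 5.21, 5.77 and 5.38, a fall of 2.80 (SE 0.22, adjusted p = 1.0e-06), while VIM gave -0.09. GRHL3 fell at least 5.17-fold and out of detection (adjusted p = 2.5e-06). The contrast of the drug responses, SNU-5 minus MKN45, was -3.39 for COL1A2 (SE 0.43, adjusted p = 2.3e-04), -2.21 for NES (SE 0.31, adjusted p = 5.7e-04) and -3.72 for GRHL3 (SE 0.35, adjusted p = 2.3e-05). COL1A2 was detected on no MKN45 array, where it read 4.51 to 4.74, so a fall in that line could not be measured. It passed the detection filter through the SNU-5 control arrays alone. NES read 5.68, 5.28 and 5.60 in MKN45 controls and 4.97, 4.88 and 4.94 with crizotinib. The lowest detected signals of those treated arrays were 4.85 to 4.88, so a much larger fall of NES there could not be measured. GRHL3 in MKN45 was detected on no control array and read 5.51, 5.29 and 5.07 with crizotinib (change 0.88, adjusted p = 0.015, not called).

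In MKN45, 6 of 27 epithelial effectors rose and 2 fell with crizotinib, where 7.32% of all genes rose and 7.19% fell, with a median of 0.29 against 0.0042 over all genes. Those that rose were ERBB3, CLDN3, CGN, DSP, FXYD3 and ST14, and those that fell were KRT8, a simple epithelial keratin, and CDS1. ERBB3 rose by 2.30 (SE 0.15, limma adjusted p = 1.7e-07). Of the mesenchymal effectors, ACTA2, the smooth muscle actin gene, alone was called and rose by 2.01 (SE 0.25, adjusted p = 5.4e-05). CD44, whose splicing ESRP1 is known to govern, gave 0.07 (adjusted p = 0.84) in total signal, and isoforms were not measured by these probes.

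Of the 12 tested other EMT transcription factors, crizotinib called 1 higher and 1 lower in SNU-5, and 1 higher and 3 lower in MKN45. Of all genes, 7.08% rose and 7.46% fell in SNU-5, and 7.32% rose and 7.19% fell in MKN45. SOX4 went from 7.46, 7.12 and 7.24 to 9.97, 9.99 and 9.90 in SNU-5 and from 9.61, 9.23 and 8.63 to 12.04, 11.86 and 11.50 in MKN45, rising by 2.68 and 2.64 (SE 0.22 each, limma adjusted p = 1.5e-06 and 1.6e-06). ETV4, an ETS factor known as an output of receptor tyrosine kinase signaling, fell by 3.18 in SNU-5 and fell by 3.34 in MKN45 (SE 0.33 each, adjusted p = 9.0e-06 and 5.8e-06). SOX9 fell by 2.19 in MKN45 (SE 0.23, adjusted p = 1.3e-05) and gave -0.18 in SNU-5 (adjusted p = 0.64), a difference of 2.01 (SE 0.33, adjusted p = 0.0017). CDX2, an intestinal homeobox factor counted among the guardians, rose by 2.45 in SNU-5 and 1.67 in MKN45 (SE 0.18 each, adjusted p = 6.7e-07 and 1.6e-05). KLF4, also in that list, went down in MKN45, from 8.04, 7.78 and 7.36 to 6.11, 6.32 and 6.14. Of the 11 tested guardians, 4 were called higher and 1 lower in SNU-5, and 2 higher and 2 lower in MKN45.

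Markers of other cell types were read because VIM, SNAI2 and COL1A2 are also expressed by stromal cells. Of 10 fibroblast markers, LUM and DCN, small leucine-rich proteoglycan genes, were tested and the other 8 were not, and PDGFRA, PDGFRB, THY1, FBN1 and DPT were detected on no array. LUM read 8.84, 10.46 and 10.35 in SNU-5 controls and 12.58, 12.28 and 12.29 with crizotinib, a 5.65-fold rise (limma adjusted p = 6.7e-05), and lay between 4.66 and 5.16 in MKN45. DCN rose by 2.62 in SNU-5 (SE 0.15, adjusted p = 6.3e-08). The summed signal of the fibroblast list was 1362 to 1714 in SNU-5 controls, 4340 to 5357 in SNU-5 with crizotinib, 504.0 to 593.4 in MKN45 controls and 548.8 to 559.5 in MKN45 with crizotinib. These sums are of signals before normalization. In SNU-5 with crizotinib, LUM and DCN were the only genes of the list detected on all 3 arrays. The part of stromal cells in the SNAI2, COL1A2 and VIM values was not tested. No endothelial marker was detected on all 3 arrays of any group, and of the leukocyte markers PTPRC, CD3D, CD3E and TYROBP were detected on no array, while the untreated log2 difference, SNU-5 minus MKN45, was 5.38 (SE 0.19) for CD14 and -5.20 (SE 0.35) for LYZ.

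For each called member, the genes whose centred signals lay nearest over the 12 arrays were taken among genes called in at least 1 of the same comparisons, by the root mean square difference on the log2 scale. ESRP1, with a range of 4.25, was followed most closely by BAAT (0.12), MCF2L (0.19) and ZBTB7C (0.20). GRHL2, with a range of 3.29, was followed by BMP2 (0.17), TMEM163 (0.19) and SCNN1A (0.19), and VIM, with a range of 6.52, by TM4SF4 (0.32), KYNU (0.35) and GALC (0.36). SNAI2, with a range of 2.17, was followed by FRMD8 (0.20), WNT2B (0.25) and INPP1 (0.26). These distances describe 4 groups of 3 arrays.

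**Figure D5:**
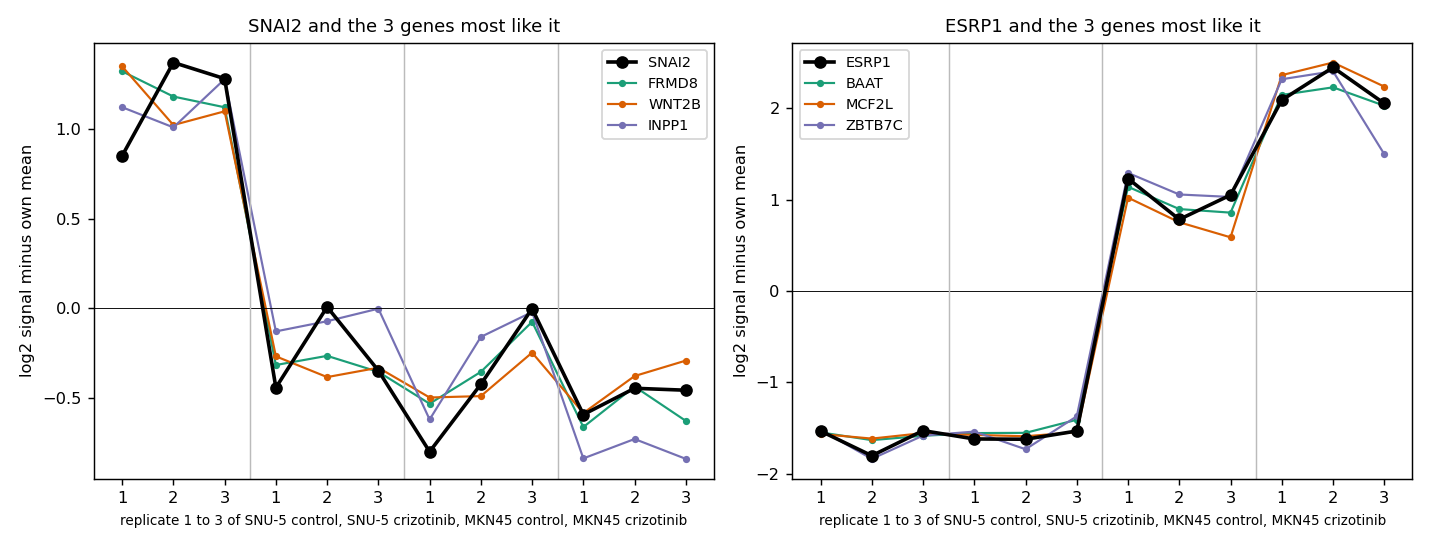
Log2 signal minus each gene's own mean (vertical axis) on the 12 arrays (horizontal axis, replicates 1 to 3 of the 4 groups in order), for SNAI2 and ESRP1 (black) and the 3 genes nearest to each. SNAI2 and its neighbours are high on the 3 SNU-5 control arrays, and ESRP1 and its neighbours step up from SNU-5 to MKN45 controls and again to MKN45 with crizotinib.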

How the data were processed

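RNA of SNU-5 and MKN45 cells was profiled on 12 arrays, and groups and replicate numbers came from the sample labels. The authors deposited signal intensities of 47323 probes, neither normalized nor background corrected, each with a detection p-value. The authors also deposited log2 values, quantile normalized with limma, which differ from log2 quantile values computed here by at most 0.0050. Probes were named through the platform's annotation: 30113 had 1 symbol, 8 several and 17202 none.

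Intensities went through neqc of limma 3.58.1, run in R 4.3.3 (normexp background correction from the detection p-values, an offset of 16, quantile normalization, log2). The offset compresses differences between dim probes. Tests covered the 23525 probes (49.7%) detected at p under 0.05 on 3 or more of the 12 arrays, which name 12760 genes, each gene at its brightest probe. A single limma model of 4 group means (lmFit and eBayes, 8 residual degrees of freedom, prior 5.17) gave all comparisons, with Benjamini-Hochberg adjustment over all probes tested. The thresholds follow the study's methods, which used a random variance t-test, run here as an alternative and called the methods' t-test. The number of arrays limits precision. The procedure was tested on simulated data.

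Members, lists and tests were chosen with earlier results of these data known. The genes named were all members, from each list the 4 or fewer genes of lowest adjusted p in the drug comparisons, and CDH1, EPCAM, FN1, ZEB2, TWIST1, OVOL2, CTNNB1 and CD44. Exceptions are stated in the text. Deviations from the group means were correlated between same-numbered control and treated arrays. These correlations were 0.11, 0.33 and 0.11 in MKN45 and 0.10, 0.01 and 0.45 in SNU-5. Between differently numbered arrays they ran from -0.31 to 0.14 in MKN45 and from -0.36 to 0.26 in SNU-5. The main model paired no arrays in either line, and pairing entered only through the replicate block among the alternatives.

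Alternatives were no detection filter, no background correction before quantile normalization, the authors' deposited log2 values, a stricter filter (detection p under 0.01 on at least 6 arrays), a fit per line, a replicate block, the methods' t-test, no fold threshold, the mean of a gene's probes, and leaving out each array. Counts of list genes without SNU-5 control replicate 1 were added after the values had been seen.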

Additional observations from a re-analysis of the deposited data

Results flagged for a closer look

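The response to crizotinib differed between the lines for SNAI2 and ESRP1, by a limma contrast of the changes, SNU-5 minus MKN45. For SNAI2 the difference was -1.34 at the brighter probe (adjusted p = 0.012) and -1.93 at the other (adjusted p = 5.8e-05), the gene falling on every SNU-5 treated array below every SNU-5 control. The brighter SNAI2 probe lost this call under 11 of 18 alternatives, 9 of them single arrays left out, and in MKN45 it was detected on 1 of 3 control and 0 of 3 treated arrays and the other probe on 0 of 6. For ESRP1 it was -1.15 (adjusted p = 0.0067), the gene rising on every treated MKN45 array above every MKN45 control, with SNU-5 below detection throughout. With the replicate block the ESRP1 difference stayed at -1.15 with an adjusted p of 0.021, and the call was lost.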

How the results depend on the processing

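Member and CDH1 differences never turned direction while called: of 866 alternative values, 835 stayed on their side of the threshold, 24 lost the call and 7 gained it. Among the 835 are 19 uncalled values that changed sign, most of them of VIM in its drug responses or their contrast. The 5 members called between untreated lines and the 5 called under crizotinib stayed within 1.5 times of that count under all alternatives. The untreated line difference of the brighter SNAI2 probe lost its call without background correction (0.96). The SNU-5 response count of 1 became 0 without background correction, with the deposited values and with the stricter filter, under which SNAI2 was not tested. The MKN45 count of 1 became 0 without background correction and with the deposited values (ESRP1 0.99 in each), and 2 with no fold threshold, which adds GRHL2. The count of 2 for the line difference in response became 0 without background correction and with the deposited values, and 1 with the stricter filter or the replicate block, under which ESRP1 was -1.15 (adjusted p = 0.021). The block changed no other member call.

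Leaving out each array in turn gave 1 in every case for SNU-5, 1 to 2 for MKN45 and 1 to 2 for the line difference. The MKN45 count was 2 without MKN45 control replicate 1 or crizotinib replicate 3, where GRHL2 gave 1.01. The line difference of the brighter SNAI2 probe lost its call without 9 of the 12 arrays, all but SNU-5 control replicate 1, SNU-5 crizotinib replicate 2 and MKN45 control replicate 3 (adjusted p from 0.024 to 0.040 where lost). The other SNAI2 probe, detected on the SNU-5 control arrays only, kept it throughout. Over all probes, the MKN45 response had 2826 calls, against 1868 with the deposited values and 1872 without background correction. Without background correction the untreated line differences were smaller. CDH1 gave -5.83 against -7.07, CDH3 -2.57 against -3.60 and ESRP1 -1.71. These 3 genes were detected on every MKN45 array and on at most 1 SNU-5 control array. The brighter VIM probe, detected on every array, gave 5.28 against 5.64. The cause of the other changes was not tested.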
